A study of Mus musculus with 48 samples.

Results

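The genes described here are 10 factors of heart development, Gata4, Gata6, Nkx2-5, Tbx5, Tbx20, Tbx18, Hand1, Hand2, Hand2os1 and Mef2c, out of the 54752 genes of a gene-level expression matrix of mouse endothelial cells and cardiomyocytes. Of these, 9 encode transcription factors and Hand2os1 is a long non-coding RNA read from the strand opposite to Hand2. They were chosen by name, with earlier results of these data known in which several of them stood higher in lymphatic endothelial cells (LECs) of the heart than in those of the diaphragm, so the values of heart against diaphragm LECs chose the list and are given as a description without a test. Myh6, the alpha myosin heavy chain of the contractile apparatus, was set beside them as the measure of cardiomyocyte RNA in each endothelial library.

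The mice carried eGFP behind an internal ribosome entry site at the Prox1 locus, on a C57BL/6 background, and were 8 to 16 months old by the labels, while the methods of the study give an age in weeks. All received an osmotic minipump for 5 to 6 weeks, which released bovine serum albumin (BSA) alone in the ctrl group, angiotensin II in BSA in the angII group, and angiotensin II with VEGFCc156s, a VEGFR3-selective mutant of VEGFC, in the angII+VEGFC group. Heart LECs, diaphragm LECs and heart blood endothelial cells (BECs) were sorted as CD31-positive, CD45.2-negative cells with or without eGFP, and cardiomyocytes were pelleted at low speed and not sorted. Each of the 4 populations had 12 libraries, 4 ctrl, 5 angII and 3 angII+VEGFC, from 13 mice that mostly gave a library to each population. A sort on eGFP reads out a reporter of Prox1, and the groups hold different mice.

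Members of the GATA, NK2, T-box, HAND and MEF2 families act together in the embryo to set up the heart fields, the chambers and the contractile programme. Gata4 and Gata6 are zinc-finger factors that are also active in endocardial cells, and Nkx2-5 and Tbx5 are required for the cardiomyocyte lineage and the conduction system. Tbx20 and Hand2 act in myocardium, endocardium and valves, Tbx18 marks epicardium and mural cells, Hand1 marks the embryonic left ventricle, and Mef2c serves both muscle and vascular endothelium. Hand2os1, also called upperhand, lies head to head with Hand2 and is known as a regulator of the Hand2 locus in the developing heart.

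Hand2 (ENSMUSG00000038193) lies on the plus strand of chromosome 8 of GRCm38 at 57320983 to 57324633, and Hand2os1 (ENSMUSG00000100510) on the minus strand at 57281117 to 57324233. Their exons shared 461 bases on opposite strands, 19.6% of the exonic bases of Hand2 and 3.59% of those of Hand2os1. The library kit keeps no strand, so reads from the shared bases cannot be told apart. The part of Hand2os1 reads in the levels, differences and calls given for Hand2 was not tested. In RefSeq the start sites of the pair lie 124 bases apart, with that of Hand2os1 at 57320859. The positions above differ, as they place the start of Hand2os1 at 57324233, within Hand2. The interval upstream of Hand2 is shown because both genes begin at it in RefSeq and both had their highest level in heart LECs. The 250 bases before the Hand2 start, at chr8:57320733-57320982 on the plus strand (RefSeq, GRCm38.p6), read as follows, with capitals at the letters TGATAA or AGATAA, searched on both strands as GATA-type motifs:
Hand2 upstream: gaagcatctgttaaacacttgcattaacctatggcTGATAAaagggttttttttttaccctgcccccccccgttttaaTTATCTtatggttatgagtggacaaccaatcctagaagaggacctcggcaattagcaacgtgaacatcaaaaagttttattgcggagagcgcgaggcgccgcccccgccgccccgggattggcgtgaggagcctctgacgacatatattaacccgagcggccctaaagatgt
Counted from the Hand2 start, a match on the plus strand began at −215 and a match on the minus strand at −172. These letters occurred in 18.6% of the 32851 promoter windows of RefSeq that reach from 250 bases before to 50 bases after a start. Of the 10 genes, 6 had an entry in that table, and the 2 member windows with a match were the overlapping windows of Hand2 and Hand2os1. A match is a description of letters and not of binding.

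The values are TPM, a unit of transcript abundance scaled for transcript length and library total. The depth of the libraries is unknown, and 12924 to 25896 genes per library reached 1 TPM. Lymphatic markers (Prox1, Lyve1, Flt4, Pdpn and Reln) summed to 1650 to 2674 TPM in heart LECs, 4314 to 6825 TPM in diaphragm LECs and 81.5 to 133 TPM in heart BECs. Blood endothelial markers (Nos3, Flt1, Cd36, Aqp1 and Gpihbp1) summed to medians of 1812 TPM in heart LECs, 1813 TPM in diaphragm LECs and 7816 TPM in heart BECs. All 5 lymphatic markers separated heart LECs from heart BECs without overlap, as their labels have it, but the LEC libraries also held blood endothelial markers, and in the angII heart LECs the median of these (2355 TPM) was above that of the lymphatic markers (2209 TPM). The angII libraries of both LEC populations had more genes that reached 1 TPM (medians of 22814 in heart and 20742 in diaphragm) than ctrl (18360 and 16862) or angII+VEGFC (18425 and 16427). In the diaphragm, 4 LEC libraries held 16.6 to 78.5 TPM of Myh6, against a median of 1.04 TPM over all 12. Those 4 were 1 ctrl and 3 angII libraries, and the differences of the members from diaphragm LECs are given with and without them.

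Gata4, Gata6, Hand2 and Hand2os1 were present in every heart LEC library and lower in diaphragm LECs. There Gata6 and Hand2os1 still reached 1 TPM in 12 of 12 libraries and Gata4 in 8. Gata4 ran from 21.1 TPM through a median of 36.5 to 57.4 TPM in the 12 heart LEC libraries, and from 0.301 through 2.59 to 11.4 TPM in the 12 diaphragm LEC libraries. Gata6 ran from 19.4 through 28.5 to 51.1 TPM in heart LECs and from 1.11 through 5.14 to 15.8 TPM in diaphragm LECs. For both GATA factors the lowest heart library stood above the highest diaphragm library. Hand2, a basic helix-loop-helix factor, ran from 2.23 through 6.80 to 13.9 TPM in heart LECs and was listed at 0 in 9 of 12 diaphragm LEC libraries, with 0.978 TPM the highest. Hand2os1 ran from 42.3 through 129 to 276 TPM in heart LECs and from 1.12 through 5.24 to 19.0 TPM in diaphragm LECs. Thus the 4 genes had no overlap between the organs, as did 0.24% of all 28313 genes compared with the heart side higher. On the other side, 0.0954% of all genes were lower in heart LECs without overlap, and 0 of the members. The rule used this contrast, so nothing is read from these counts.

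The ratio of the mean TPM in heart to that in diaphragm LECs was 12.4 for Gata4, 5.26 for Gata6 and 19.1 for Hand2os1. Over the 11 mice that gave both libraries, the heart minus diaphragm difference in log2(TPM + 1) was 4.37 ± 1.18 (SD, n = 11) for Hand2os1, 3.53 ± 0.98 for Gata4, 2.68 ± 0.87 for Hand2 and 2.35 ± 0.98 for Gata6. Each of the 4 was higher in the heart library of all 11 mice. Within batch 1 the difference of the means was 3.81 for Hand2os1, 3.17 for Gata4, 2.62 for Hand2 and 1.97 for Gata6, and within batch 2 it was 4.50, 3.86, 2.70 and 2.80. In whole libraries, fewer cells of a type and less RNA per cell cannot be told apart.

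The remaining members divided by direction. Tbx20, a T-box factor of myocardium and endocardium, averaged 5.85 ± 3.66 TPM in heart LECs and 1.98 ± 1.68 TPM in diaphragm LECs (SD, n = 12), with overlapping ranges, and was higher in the heart library of 11 of 11 mice by 1.31 ± 0.82 in log2(TPM + 1). Mef2c went the other way, with 67.1 to 138 TPM (median 99.2) in heart LECs and 114 to 182 TPM (median 136) in diaphragm LECs. Its heart minus diaphragm difference was −0.62 ± 0.34 and was negative in 11 of 11 mice, although the ranges overlapped. Nkx2-5 was at 0 in 6 heart and 8 diaphragm LEC libraries, and Tbx5 averaged 1.65 ± 3.44 and 1.49 ± 3.08 TPM. Tbx18 averaged 0.636 ± 0.999 TPM in heart LECs and 0.329 TPM in diaphragm LECs, and Hand1 did not pass 0.749 TPM in any library. Of the 10 genes, 8 reached 1 TPM in at least 3 heart LEC libraries (all but Tbx18 and Hand1) and 6 did so in diaphragm LECs (Gata4, Gata6, Tbx5, Tbx20, Hand2os1 and Mef2c).

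**Figure D1:**
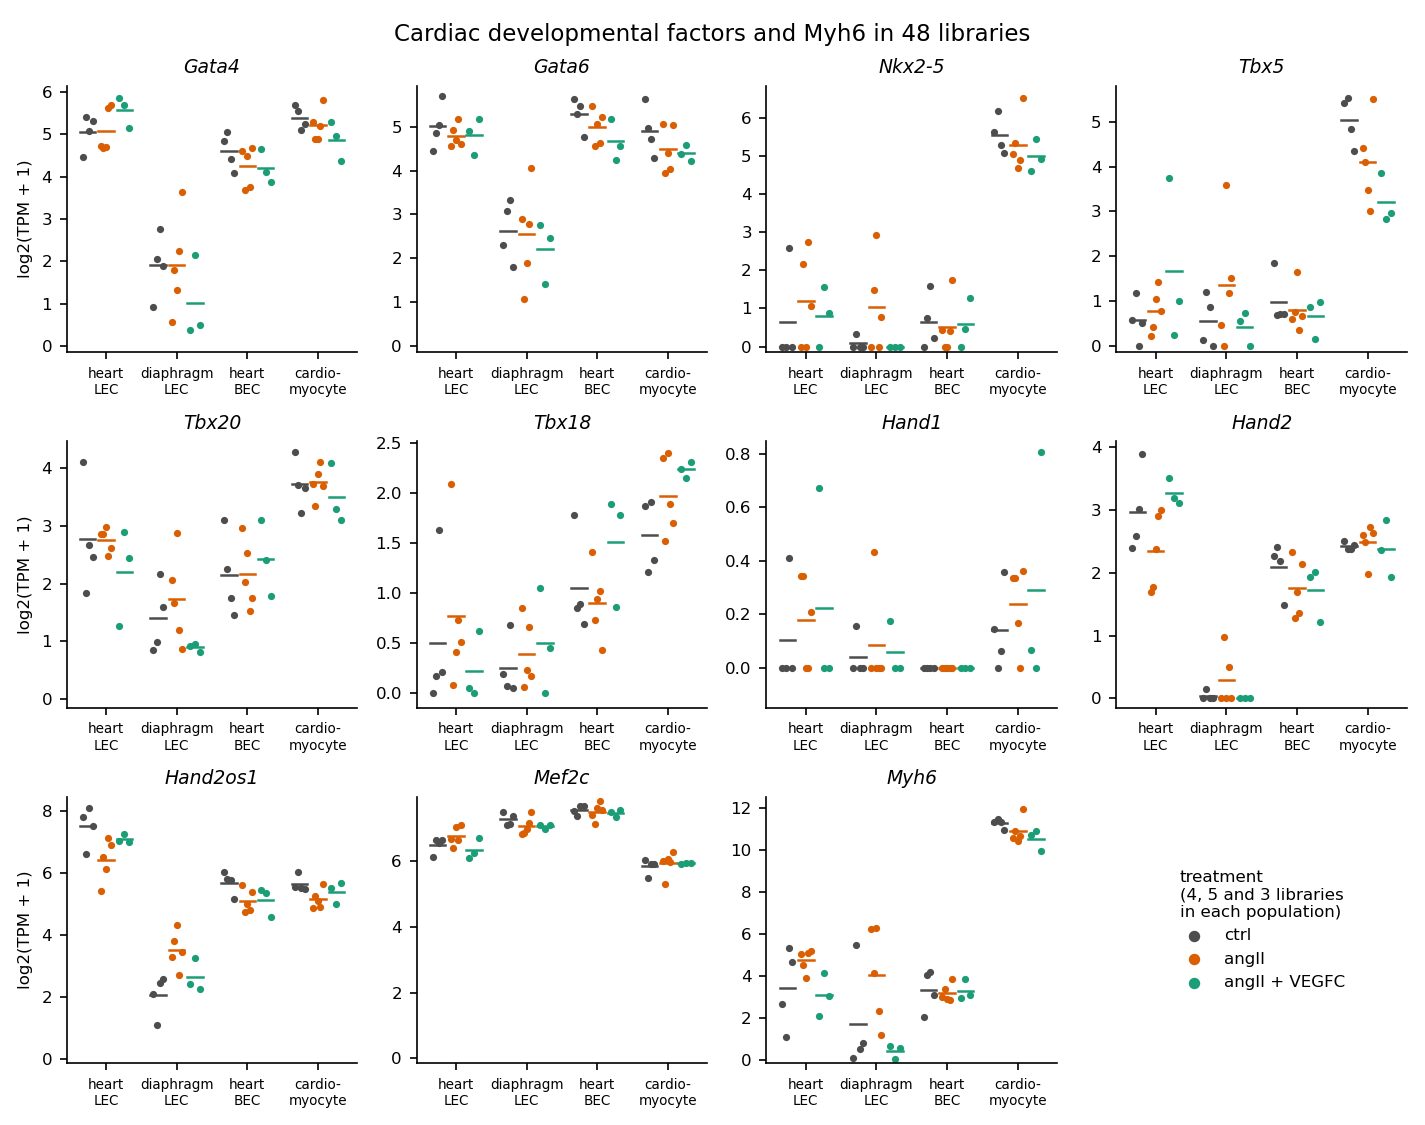
Level of each member and of Myh6 as log2(TPM + 1) on the vertical axis, in the 4 populations on the horizontal axis, with 1 point for each of 48 libraries, colours for treatment and a line at each group mean. Each panel has its own vertical scale. Gata4, Gata6, Hand2 and Hand2os1 have their lowest means in diaphragm LECs among the 4 populations, whereas Nkx2-5, Tbx5 and Myh6 are high only in cardiomyocytes.

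Across the 4 populations, the members fell into several orders of level. Gata4 (chromosome 14, 63198922 to 63271692, minus strand) averaged 37.6 ± 12.3 TPM in heart LECs, 36.7 ± 9.94 TPM in cardiomyocytes, 20.3 ± 6.38 TPM in heart BECs and 3.02 ± 3.10 TPM in diaphragm LECs. The first 3 overlapped their neighbours, and the lowest heart BEC library (11.8 TPM) was above the highest diaphragm library. Gata6 averaged 32.7 ± 9.95 TPM in heart BECs, 29.3 ± 8.63 TPM in heart LECs, 24.8 ± 9.77 TPM in cardiomyocytes and 5.56 ± 4.01 TPM in diaphragm LECs, and neighbours overlapped throughout, cardiomyocytes and diaphragm LECs by a single diaphragm library. Hand2 averaged 6.59 ± 3.34 TPM in heart LECs, 4.52 ± 0.971 TPM in cardiomyocytes, 2.79 ± 1.08 TPM in heart BECs and 0.124 ± 0.294 TPM in diaphragm LECs, with overlap except at the last step.

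Hand2os1 averaged 138 ± 65.4 TPM in heart LECs, 42.0 ± 10.7 TPM in cardiomyocytes, 40.7 ± 13.1 TPM in heart BECs and 7.21 ± 4.97 TPM in diaphragm LECs. Heart LECs were above cardiomyocytes in 12 of 12 mice, by 1.58 ± 0.69 in log2(TPM + 1), while cardiomyocytes and heart BECs covered the same range. Hand2os1 exceeded Hand2 on the TPM scale by a median of 18.8 times in heart LECs (12.6 to 52.5). The median was 15.2 times in heart BECs (11.8 to 19.0) and 9.76 times in cardiomyocytes (5.07 to 18.1). How reads from the shared exonic bases enter these ratios was not tested. Heart BECs stood above diaphragm LECs without overlap for Gata4, Gata6, Hand2 and Hand2os1, as did 3.8% of all genes, with differences of 2.67, 2.53, 1.73 and 2.51 in mean log2(TPM + 1). Without the 4 diaphragm libraries of high Myh6 these were 2.54, 2.40, 1.80 and 2.67, again without overlap. The same diaphragm LEC values entered the choice of the members, so nothing is read from this count. Organ and cell type also differ together in this comparison.

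Nkx2-5, Tbx5, Tbx20 and, at a mean of only 2.87 ± 1.02 TPM, Tbx18 were highest in cardiomyocytes. Nkx2-5 (chromosome 17, 26838664 to 26845009, minus strand) averaged 41.8 TPM there (23.4 to 90.1) against 1.51 ± 2.10 TPM in heart LECs, 0.783 ± 1.91 TPM in diaphragm LECs and 0.642 ± 0.828 TPM in heart BECs. Tbx5 (chromosome 5, 119832668 to 119885219, plus strand) averaged 21.6 ± 14.9 TPM in cardiomyocytes and 0.878 ± 0.731 TPM in heart BECs, and Tbx20 averaged 12.2 ± 3.46 and 4.06 ± 2.18 TPM. Heart LECs lay below cardiomyocytes without overlap for Nkx2-5, as did 2.01% of all genes, and heart BECs did so for Nkx2-5 and Tbx5, as did 3.65% of all genes. Mef2c (chromosome 13, 83504034 to 83667080, plus strand) had the reverse order, with 184 ± 23.1 TPM in heart BECs, 142 ± 22.9 TPM in diaphragm LECs, 96.8 ± 21.7 TPM in heart LECs and 60.0 ± 10.0 TPM in cardiomyocytes. Neighbours in this order overlapped, but heart BECs were above cardiomyocytes without overlap, as were 24.4% of all genes, and above heart LECs without overlap, as were 2.11% of all genes. Cardiomyocyte libraries were all sequenced in a batch of their own, so population and batch cannot be told apart there.

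Heart LECs and heart BECs of the same hearts give a comparison that the choice of the members did not rest on. The heart LEC libraries themselves entered that choice, so the tests below are not independent of it. Hand2os1, Hand2 and Gata4 were higher in heart LECs, and Mef2c was lower. The main fit had no term for the mouse. It used limma on log2(TPM + 1) over the 36 endothelial libraries, with Benjamini-Hochberg adjustment over all 28938 genes. Of those genes, 10.6% were called higher and 9.99% lower, against 3 and 2 of the 9 members tested. The second lower member, Tbx18, passed the filter on low values only through the libraries in which it was higher, so its call is no support. In log2(TPM + 1), the difference was 1.70 (SE 0.20) for Hand2os1, with an adjusted p from limma of 3.06e-08, and 11 of 12 mice had more in the LEC library. For Hand2 it was 1.01 (SE 0.22), adjusted p from limma 0.000891, and for Gata4 it was 0.89 (SE 0.27), adjusted p from limma 0.015, each higher in 11 of 12 mice. Mef2c differed by −0.98 (SE 0.10), adjusted p from limma 2.53e-09, and was lower in the LEC library of all 12 mice. With the mouse as a block, the adjusted p from limma was 3.24e-06 for Hand2os1 and 0.00669 for Hand2. In that fit it was 0.00082 for Gata4 and 3.1e-07 for Mef2c.

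**Figure D2:**
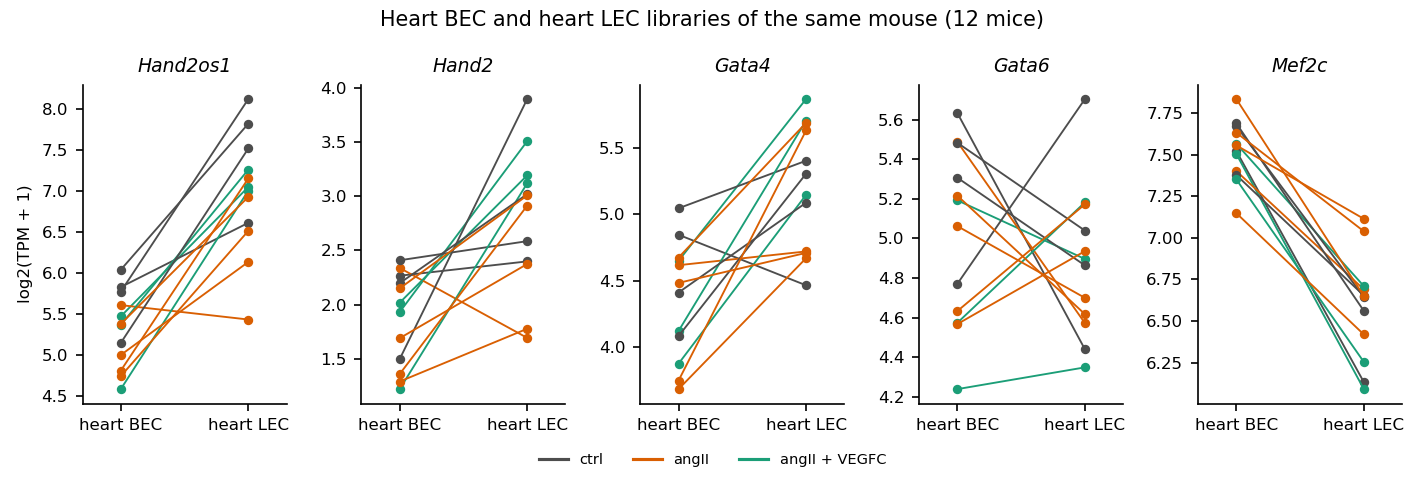
Level as log2(TPM + 1) on the vertical axis in the heart BEC and heart LEC libraries of 12 mice, a line for each mouse, coloured by treatment, with a separate scale for each gene. Lines rise in 11 of 12 mice for Hand2os1, Hand2 and Gata4 and fall in all 12 for Mef2c, while those of Gata6 cross.

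Tbx18, the epicardial and mural T-box factor, differed by −0.66 (SE 0.23), adjusted p from limma 0.0422. It averaged 0.636 ± 0.999 TPM in the LEC and 1.27 ± 0.816 TPM in the BEC libraries of the heart, and reached 1 TPM in 2 and 5 of them. Its exons also share 970 bases, 20.6% of its total, with D030062O11Rik. The Tbx18 call was lost without any 1 of 15 libraries (adjusted p from limma up to 0.103), with no filter and with the number of detected genes as a covariate. The Hand2 call was lost with quantile normalization (0.60, adjusted p from limma 0.0933) and the Gata4 call with a pseudocount of 0.1 TPM (0.92, adjusted p from limma 0.078). Within batch 1 and batch 2 the differences of the means were 1.42 and 1.87 for Hand2os1, 0.51 and 1.35 for Hand2, 0.54 and 1.16 for Gata4, −0.28 and −0.85 for Tbx18, and −0.89 and −0.99 for Mef2c. Beside these, 7 of 8 mural markers had a lower median in heart LECs than in heart BECs, 2 of 7 fibroblast markers (Pdgfra and Dcn) and 8 of 8 cardiomyocyte markers had a higher one, and the part of such RNA in the differences was not tested.

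Gata6 did not separate the endothelial populations of the heart, at −0.11 (SE 0.25) and an adjusted p from limma of 0.781, with more in the LEC library of 5 mice and less in 7. Within batches its differences had opposite signs, −0.57 and 0.28. Tbx20 differed by 0.33 (SE 0.26), Nkx2-5 by 0.31 (SE 0.37) and Tbx5 by 0.18 (SE 0.35), all short of the threshold, and the Tbx5 value was −0.19 without the 1 heart LEC library of the angII+VEGFC group that held 12.4 TPM. Myh6 differed by 0.48 (SE 0.56), adjusted p from limma 0.575.

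Myh6 was then taken as the measure of cardiomyocyte RNA in the endothelial libraries. Its mean was 2081 ± 795 TPM in cardiomyocytes, 19.5 ± 13.4 TPM in heart LECs and 18.4 ± 29.9 TPM in diaphragm LECs. In heart BECs it ran from 3.17 to 17.1 TPM (median 7.52). By the means, heart LECs, diaphragm LECs and heart BECs stood at 0.935%, 0.883% and 0.456% of the cardiomyocyte level. The medians were 19.4 TPM in heart LECs and 1.04 TPM in diaphragm LECs, of which 4 libraries held 10 TPM or more. Diaphragm LECs come from an organ other than the heart, and the source of their Myh6 was not tested. If every member came along with Myh6 in the ratio of the cardiomyocyte libraries, heart LECs would hold 0.343 TPM of Gata4, 0.232 TPM of Gata6, 0.0423 TPM of Hand2 and 0.393 TPM of Hand2os1. These implied levels were 0.914%, 0.793%, 0.642% and 0.285% of the measured means. The measured level was above the implied one in all 12 heart LEC libraries for these 4 genes, for Tbx20 and for Mef2c.

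Nkx2-5 and Tbx5, the members most restricted to cardiomyocytes by level, were nearer to what Myh6 implied. The implied level of Nkx2-5 in heart LECs was 0.391 TPM, 25.9% of its measured mean, and the measured level was above it in 6 of 12 libraries. That share was 47.2% in diaphragm LECs and 29.7% in heart BECs. For Tbx5 the implied level in heart LECs was 0.202 TPM, 12.3% of the mean. Other cardiomyocyte markers gave other sizes of carry-over into heart LECs: 2.74% with Tnnt2, 2.60% with Actc1, 6.74% with Myl2 and 31.7% with Ryr2. With Ryr2, the largest, the implied levels were 11.6 TPM of Gata4, 7.87 TPM of Gata6, 1.43 TPM of Hand2, 13.3 TPM of Hand2os1 and 13.2 TPM of Nkx2-5. The implied levels of Nkx2-5, of Tbx5 (6.83 TPM) and of Tbx18 (0.910 TPM) were then above the measured means in heart LECs, and those of the other 7 members were below. By library, Gata6, Hand2os1 and Mef2c were above the Ryr2-implied level in all 12 and Gata4 and Hand2 in 11. Endothelial transcription of the reference genes themselves was not tested.

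**Figure D3:**
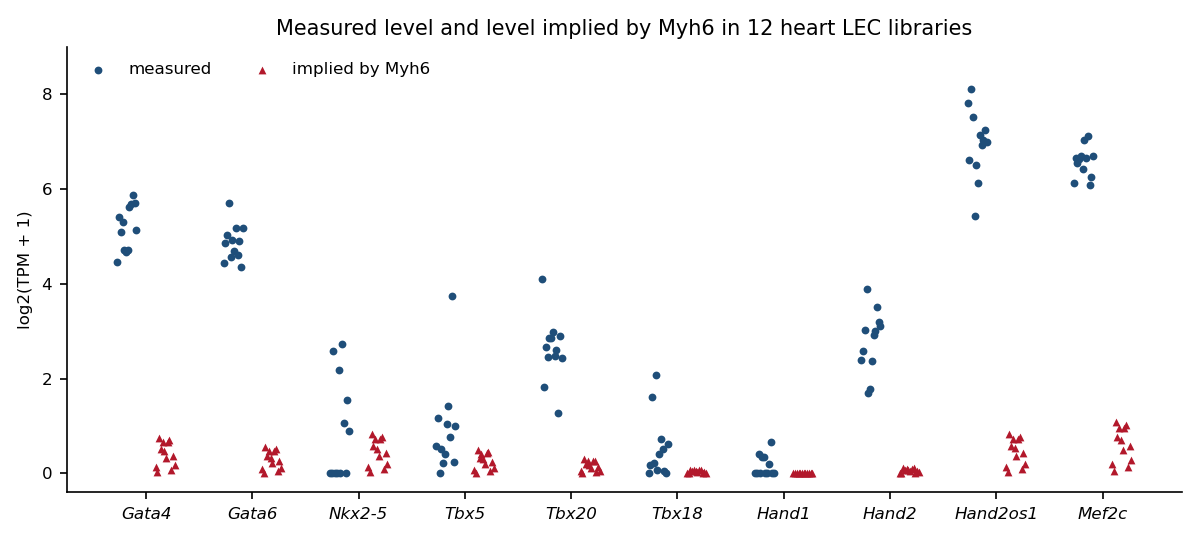
Measured level of each member (circles) and the level implied by the Myh6 of the same library (triangles), as log2(TPM + 1) on the vertical axis, in 12 heart LEC libraries. Circles lie above triangles in all 12 libraries for Gata4, Gata6, Tbx20, Hand2, Hand2os1 and Mef2c, and both overlap for Nkx2-5.

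Across the 12 heart LEC libraries together, the 4 genes that separated the organs had correlations with Myh6 from −0.074 to 0.123. Within the batches, of 6 libraries each, their correlations ran from −0.324 to 0.585. In log2(TPM + 1) over 12 libraries, Pearson's r with Myh6 was −0.072 for Gata4 (permutation p = 0.822, rho −0.007, p = 0.991) and 0.123 for Gata6 (permutation p = 0.701, rho 0.175, p = 0.585). It was −0.074 for Hand2 (permutation p = 0.82, rho −0.035, p = 0.922) and −0.003 for Hand2os1 (permutation p = 0.992, rho 0.147, p = 0.653). Without the 2 libraries farthest from the median of Myh6, r was 0.434, 0.211, 0.039 and −0.15 in the same order. Within batch 1 r was 0.496, 0.559, 0.143 and −0.222, and within batch 2 it was −0.324, 0.585, −0.022 and 0.407, over 6 libraries each. Nkx2-5 had r of 0.560 in heart LECs (permutation p = 0.0576, rho 0.620, p = 0.0358) and 0.635 in heart BECs (permutation p = 0.0268, rho 0.705, p = 0.0127). After leaving out 2 libraries these were 0.458 and 0.476, and within batches 1 and 2 they were 0.534 and 0.682 in heart LECs and 0.793 and 0.216 in heart BECs. Tbx5 had the opposite sign, with r of −0.533 in heart LECs (permutation p = 0.0696, rho −0.524, p = 0.0849) and −0.616 in heart BECs (permutation p = 0.0334, rho −0.364, p = 0.243). Without 2 libraries these were −0.216 and −0.390, and within batches 1 and 2 they were −0.390 and −0.466 in heart LECs and −0.792 and 0.102 in heart BECs. The permutation tests covered 29 relations of members and populations, were two-sided, and 6 had an unadjusted and 0 an adjusted p under 0.05, the adjusted values being 0.224 in heart LECs and 0.196 in heart BECs for both Nkx2-5 and Tbx5.

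Without the 4 diaphragm LEC libraries at 10 TPM or more of Myh6, a limit set after the values were seen, the heart minus diaphragm difference of mean log2(TPM + 1) went from 3.51 to 3.39 for Gata4, from 2.38 to 2.26 for Gata6, from 2.66 to 2.73 for Hand2 and from 4.15 to 4.31 for Hand2os1. That of Nkx2-5 went from 0.46 to 0.82 and that of Tbx5 from 0.08 to 0.31. Of those 4 libraries, that of angII mouse 4 held 6.60 TPM of Nkx2-5 and 11.1 TPM of Tbx5. Those of ctrl mouse 5, angII mouse 3 and angII mouse 15 held 0.266, 0 and 1.81 TPM of Nkx2-5. In the same order they held 1.31, 0.366 and 0 TPM of Tbx5. In the other 8 libraries Nkx2-5 was at most 0.72 TPM and Tbx5 at most 1.84 TPM.

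Marker sums of other cell types also differed between the populations. Transcription of such markers by the endothelial cells themselves was not tested. The 7 fibroblast markers summed to 697 to 1591 TPM in heart LECs, 126 to 1026 TPM in diaphragm LECs, 428 to 3837 TPM in heart BECs and 2241 to 4879 TPM in cardiomyocytes. Between the LEC populations, 4 of the 7 had a higher median in heart (Pdgfra, Dcn, Lum and Tcf21) and 3 a lower one, Col1a1 among them with 7.31 against 13.9 TPM. The 5 endocardial markers summed to 1048 to 2277 TPM in heart LECs and 706 to 1150 TPM in diaphragm LECs. Of these markers, 4 of 5 were higher in heart and Nfatc1 was lower. In heart BECs the list summed to 656 to 1795 TPM, and Nfatc1 was lower there than in heart LECs without overlap. The 8 mural markers summed to 45.7 to 674 and 43.2 to 481 TPM, with 7 of 8 medians higher in heart and Kcnj8 lower. The 8 cardiomyocyte markers summed to 140 to 986 TPM in heart LECs and 7.24 to 432 TPM in diaphragm LECs, with 8 of 8 medians higher in heart. None of these 4 lists had a marker that stood higher in heart than in diaphragm LECs without overlap, as did 0.24% of all genes. Of the blood endothelial markers, 4 of 5 had a higher median in heart LECs and Flt1 separated without overlap (71.5 to 191 against 3.48 to 35.8 TPM), while 5 of 5 lymphatic markers had a lower median in heart LECs. Gata4, Gata6 and Hand2 are known from some of these cells as well, and the part of such RNA in their levels was not tested.

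Of the members, Hand2os1 had the widest differences between treatments in both LEC populations for angII against ctrl, none of them past the threshold over all genes. In heart LECs it was at 224, 96.8, 276 and 182 TPM in the ctrl libraries, at 42.3, 90.4, 69.3, 141 and 121 TPM in the angII libraries, and at 131, 152 and 127 TPM in the angII+VEGFC libraries. Of the angII libraries, 3 lay below all ctrl libraries and the rest overlapped them, and the 3 angII+VEGFC libraries lay within the ctrl range. With age and batch in the model, angII minus ctrl was −1.24 (SE 0.29) in log2(TPM + 1), adjusted p from limma 0.168. The difference of angII+VEGFC from angII was 1.05 (SE 0.34), adjusted p from limma 0.413, and from ctrl −0.19 (SE 0.33), adjusted p from limma 0.953. Within batch 1 the angII minus ctrl difference of the means was −1.80 (3 against 2 libraries) and within batch 2 it was −0.23 (2 against 2). Marker sums of other cells differed between these libraries as well: those of blood endothelium ran from 1491 to 1845 TPM in ctrl and from 1870 to 3606 TPM in angII, without overlap, those of cardiomyocytes had medians of 197 and 652 TPM and those of fibroblasts 1329 and 865 TPM. Their part in the Hand2os1 difference was not tested.

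In diaphragm LECs Hand2os1 was low and differed in the opposite direction. It was at 3.26, 1.12, 4.41 and 5.01 TPM in ctrl, at 8.69, 12.9, 19.0, 5.47 and 10.0 TPM in angII, and at 4.39, 8.55 and 3.74 TPM in angII+VEGFC. All 5 angII libraries were above all 4 ctrl libraries, as they were for 4.78% of all 23839 genes. The difference was 1.40 (SE 0.42), adjusted p from limma 0.297, and the within-batch values were 1.42 and 1.41. These angII libraries include 3 of the 4 with high Myh6, and all 5 had more detected genes than any ctrl library. Without the libraries of high Myh6, the difference of the means went from 1.46 (5 against 4 libraries) to 0.71 (2 against 3), both without age and batch.

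In heart BECs Hand2os1 was at 64.8, 55.9, 53.8 and 34.5 TPM in ctrl, at 47.9, 25.9, 31.1, 27.1 and 40.7 TPM in angII, and at 43.4, 40.3 and 23.1 TPM in angII+VEGFC. The groups overlapped, and angII minus ctrl was −0.60 (SE 0.20), adjusted p from limma 0.814, with −0.58 and −0.71 within the batches. In cardiomyocytes it was at 46.1, 65.0, 45.0 and 43.5 TPM in ctrl, at 28.6, 37.1, 33.7, 29.0 and 49.5 TPM in angII, and at 44.5, 31.2 and 50.9 TPM in angII+VEGFC. Here 4 of 5 angII libraries lay below all ctrl libraries, and the difference was −0.48 (SE 0.21), adjusted p from limma 0.482.

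**Figure D4:**
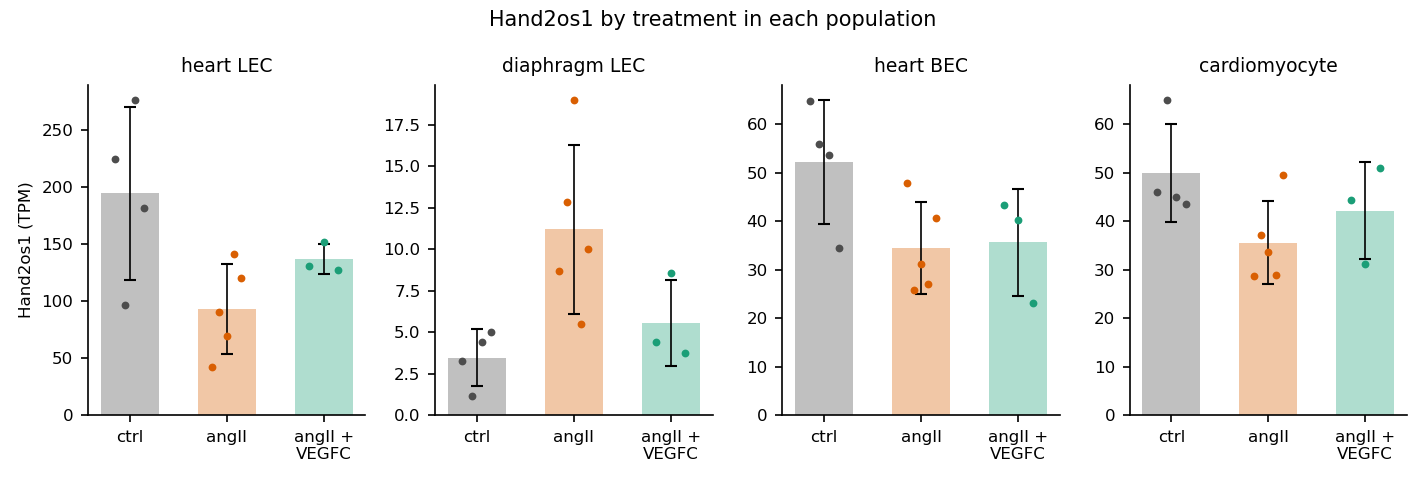
Hand2os1 in TPM on the vertical axis by treatment in each population, with bars at the mean, error bars of 1 SD and a point for each library, and a separate scale for each panel. In heart LECs the angII libraries span 42.3 to 141 TPM and the ctrl libraries 96.8 to 276 TPM, and in diaphragm LECs all angII libraries lie above all ctrl libraries.

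No other member passed the threshold between treatments either. Across the 12 treatment comparisons, limma with Benjamini-Hochberg adjustment called 0 of 93 member tests, and 11 (11.8%) had an unadjusted p under 0.05, as did 7.61% of all gene tests. The share of all genes called was 0.0261% for angII against ctrl in heart LECs, 0.0892% for angII against ctrl in cardiomyocytes, 0.663% for angII+VEGFC against ctrl in cardiomyocytes and 0% in the other 9 comparisons. In heart LECs the members ran from −1.24 to 0.43 for angII minus ctrl (median −0.02 beside 0.23 for all genes), from −0.53 to 1.25 for angII+VEGFC minus angII (0.31 beside −0.37) and from −0.54 to 1.16 for angII+VEGFC minus ctrl (0.10 beside −0.13). Hand2 was at 2.23, 2.43, 4.19, 6.54 and 7.05 TPM in the angII and at 10.4, 8.16 and 7.70 TPM in the angII+VEGFC heart LEC libraries, without overlap, as were 0.825% of all genes in that direction. Its difference was 1.25 (SE 0.52), adjusted p from limma 0.436, and its ctrl libraries covered 4.28 to 13.9 TPM.

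Tbx5, a T-box factor of cardiomyocytes and conduction tissue, had the largest member difference in cardiomyocytes. It was at 41.9, 45.1, 27.6 and 19.4 TPM in the ctrl libraries, at 20.3, 16.1, 10.1, 7.06 and 44.8 TPM in the angII libraries, and at 13.5, 6.15 and 6.81 TPM in the angII+VEGFC libraries. The angII+VEGFC libraries were all below the ctrl libraries, as they were for 4.78% of all 15691 genes. The difference was −1.92 (SE 0.47), adjusted p from limma 0.0874. It passed the threshold with quantile normalization (−2.02, adjusted p from limma 0.0349) and without the angII library of 44.8 TPM (−1.93, adjusted p from limma 0.017).

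Tbx18 in cardiomyocyte libraries was at 2.65, 1.31, 2.75 and 1.51 TPM in ctrl and at 3.71, 3.44 and 3.96 TPM in angII+VEGFC, above ctrl without overlap as were 9.19% of all genes, and differed by 0.64 (SE 0.29), adjusted p from limma 0.363. Gata6 differed by −0.65 (SE 0.29) in the same comparison, adjusted p from limma 0.352, and Myh6 by −0.76, adjusted p from limma 0.356. In the cardiomyocyte libraries the fibroblast markers summed to a median of 2594 TPM in ctrl and 4839 TPM in angII+VEGFC, and the part of non-myocyte RNA in these differences was not tested.

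**Figure D5:**
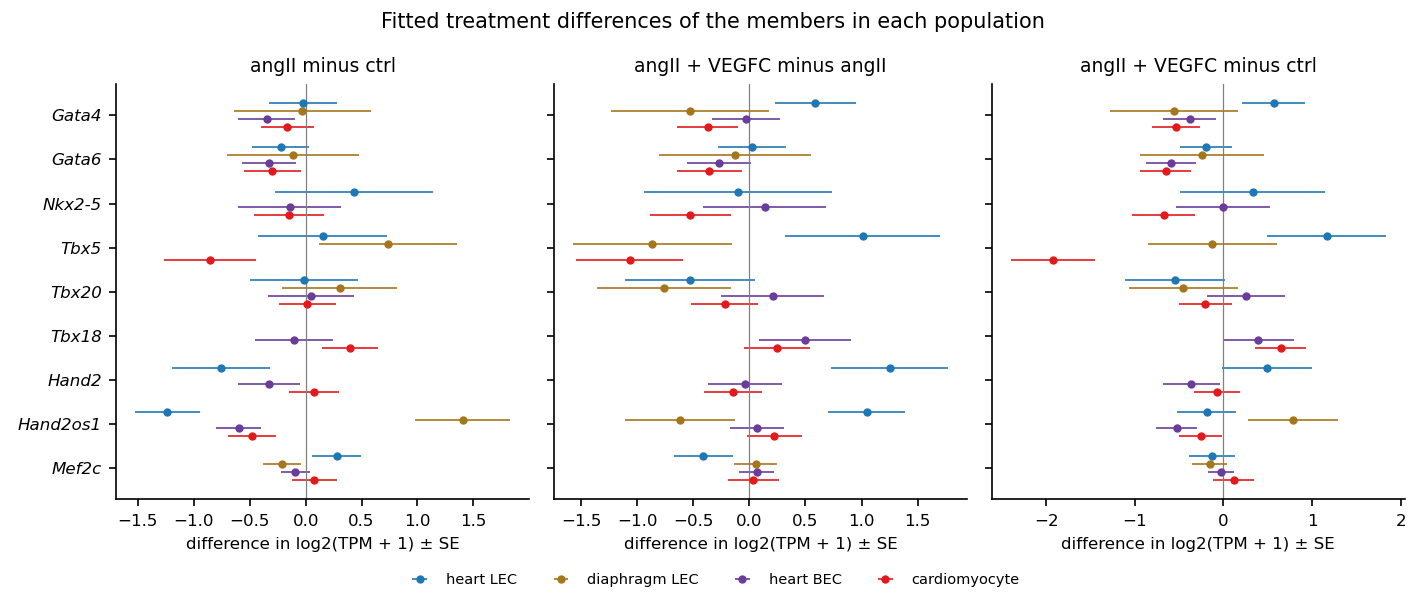
Fitted treatment differences in log2(TPM + 1) on the horizontal axis, with bars of 1 SE, for the members that passed the filter in each population, coloured by population. Hand2os1 lies at −1.24 in heart and 1.40 in diaphragm LECs for angII minus ctrl, Hand2 at 1.25 in heart LECs for angII+VEGFC minus angII, and Tbx5 at −1.92 in cardiomyocytes for angII+VEGFC minus ctrl.

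The angII response of Hand2os1 was also compared between populations in the fit of all endothelial libraries. Heart minus diaphragm LECs gave −2.60 (SE 0.46) in log2(TPM + 1), and Hand2os1 was 1 of the 2 genes called, 0.00691% of all genes. Since heart against diaphragm chose the list, this is a description, and the call was lost with the mouse as a block (−2.29, SE 0.46) and without any 1 of 10 libraries. Taken from group means, without age and batch, the value went from −2.54 to −1.79 without the 4 diaphragm libraries of high Myh6. For angII+VEGFC minus angII the same contrast, again a description, had 0% of all genes called. It gave 1.83 (SE 0.87) for Tbx5, 1.59 (SE 0.50) for Hand2os1, 1.47 (SE 0.66) for Gata4 and 1.26 (SE 0.56) for Hand2. Tbx5 reached 12.4 TPM in 1 angII+VEGFC heart LEC library, and Hand2 was at 0 in 9 of 12 diaphragm LEC libraries. The contrast of heart LECs with heart BECs, which the rule did not use, gave −0.49 (SE 0.45) for the angII response of Hand2os1, adjusted p from limma 0.849, and 0.64 (SE 0.49) for angII+VEGFC minus angII, adjusted p from limma 0.781, with 0% of all genes called in each. In these 2 contrasts 0 members had an unadjusted p under 0.05 in limma.

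Other factors of heart development, 28 genes listed by their known roles, gave a background for the members. Between heart and diaphragm LECs the 8 members that passed the filter in either population had a median difference of 1.80, while the 26 other factors tested had 0.41, the 16 known targets 0.68 and all genes 0.12. The members were chosen on this contrast, so their median is a description. Tcf21, a fibroblast and epicardial factor, was the highest of the other factors at 2.00, and Nr2f2, a venous and lymphatic factor, the lowest at −0.78. Between heart LECs and heart BECs, 5 of the 26 other factors were called higher with limma (Tbx1, Zfpm2, Meis2, Nr2f2 and Nfatc1) and 9 lower (Tbx2, Mef2d, Srf, Wt1, Tbx3, Meis1, Mef2a, Irx3 and Tcf21), beside the 10.6% and 9.99% of all genes. Tbx1, a T-box factor of the second heart field and of lymphatic development, had the widest difference, 6.14 (SE 0.25). Zfpm2, the cofactor known as FOG2 that binds GATA4, differed by 1.85 (SE 0.18). Of the known targets, Casq2, Gja1 and Gja5 were called lower. Across the 12 treatment comparisons 1 of the other factors was called, Hopx in cardiomyocytes, and 0 of the targets, of which 27.3% of the tests had an unadjusted p under 0.05, beside 7.61% for all genes.

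The genes most like the members in level were found by Pearson's r of log2(TPM + 1), as a description over libraries that share population and batch. Over the 48 libraries, Hand2 was the gene most like Hand2os1 (r = 0.890). The part of reads from their shared exonic bases in this value was not tested. Apoe was the most like Gata4 (0.912) and Gata6 (0.875), and Gata4 the most like Hand2 (0.910). Nkx2-5 was most like Lmod2 (0.956), a thin-filament gene, Tbx5 most like Bves (0.925), Tbx20 most like Synpo2 (0.840) and Mef2c most like Myct1 (0.939). Over the 24 LEC libraries, Hand2os1 was most like Lsamp (0.958), Cd59a (0.955) and Aqp8 (0.949), and Hand2 most like Rdx (0.955). Gata4 was most like Cd59a (0.949), Cytl1 (0.945) and Clu (0.939), and Gata6 most like Apoe (0.922), Emb (0.889) and Pdgfrb (0.888). Of these, Cytl1 is one of the endocardial and Pdgfrb one of the mural markers, and the part of such RNA was not tested. Aqp8, a water channel, averaged 64.4 TPM in heart LECs and 0.281, 0.141 and 0.537 TPM in diaphragm LECs, heart BECs and cardiomyocytes.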

How the data were processed

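The 48 libraries were made by the authors with SMART-Seq and Nextera XT, aligned to GRCm38 with STAR 2.5.3a and quantified with Salmon 0.12.0, and the deposited matrix is in TPM per gene, with no counts and so no depth (54752 genes, 54723 with a symbol in the annotation). Groups, mouse numbers, batches and ages (in months) came from the labels. The members and lists were chosen with earlier results of these data known.

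Values were taken as log2(TPM + 1). Genes that reached 1 TPM in 3 or more libraries of a population were tested by limma 3.58.1 (R 4.3.3), with a variance trend, age and batch (age alone in cardiomyocytes, all of 1 batch) and all 3 treatments, and p-values were adjusted by Benjamini-Hochberg over all genes at 0.05. Heart LECs and heart BECs, and differences in response, were fitted over 36 endothelial libraries. Named genes were the members, Myh6, the listed factors and targets called in a test or at the ends of their range, and the genes most like each member. Levels implied by Myh6 were its TPM in a library over its mean in cardiomyocytes, times the mean of the member there. The fits were tested on simulated data. Correlations used 100000 permutations (scipy 1.17.1).

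The mouse number of the labels pairs the populations: deviations from group means correlated at a mean of 0.0893 between heart LEC and heart BEC libraries of a mouse (12 pairs, −0.0240 to 0.266) and −0.00544 between different mice. Alternatives were another pseudocount, no filter, no covariates, quantile normalization, detected genes as a covariate, 2 treatments alone, the mouse block and leaving out each library. A protein table was not used here. The result of 1 listed target is not reported here.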

Additional observations from a re-analysis of the deposited data

Results flagged for a closer look

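Of 78 groups of 4 or 5 libraries, 10 held a library apart from the others by Dixon's test at 95%. That test picks about 1 group in 20 by chance where values are normally spread. If the other libraries of a group are all at 0, any value above 0 is flagged, so that rate does not apply. Of the 10 flagged values, 5 were under 1 TPM. Nkx2-5 was at 5.04 TPM in the heart LEC library of ctrl mouse 9, at 0.266 TPM in the diaphragm LEC library of ctrl mouse 5, both with the other ctrl libraries at 0, and at 2.37 TPM in the heart BEC library of angII mouse 14. Tbx5 was at 2.57 TPM in the heart BEC library of ctrl mouse 1, against 0.611 to 0.636 TPM in the other ctrl libraries. The heart LEC library of ctrl mouse 9 also held 2.08 TPM of Tbx18 and 0.330 TPM of Hand1. In diaphragm LECs Hand1 was at 0.113 TPM in ctrl mouse 5 and 0.351 TPM in angII mouse 15, and Hand2 at 0.104 TPM in ctrl mouse 5. Among genes of clear expression, Hand2os1 in the cardiomyocyte library of ctrl mouse 5 stood at 65.0 TPM, with 43.5 to 46.1 TPM in the other ctrl libraries.

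The angII response of Hand2os1 differed between heart and diaphragm LECs by −2.60 (SE 0.46) in log2(TPM + 1), −1.24 in heart and 1.40 in diaphragm in their own fits. Heart against diaphragm chose the list, the call was lost with the mouse as a block (−2.29) and without any 1 of 10 libraries, and from group means the value was −1.79 without the 4 diaphragm libraries of high Myh6, against −2.54 with them.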

How the results depend on the processing

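With the number of detected genes as a covariate, Hand2os1 in diaphragm LECs was 0.24 for angII+VEGFC minus angII, and heart LECs minus heart BECs gave 0.0800 for Gata6 and −0.0708 for Tbx20, each of the opposite sign to the reported value and short of the threshold in both; the cause was not tested. The mouse as a replicate block left 0 members called for the angII response of heart minus diaphragm LECs, as did no filter, no covariates, quantile normalization and the detected genes (0 to 1 when each library was left out). The block changed no call between heart LECs and heart BECs. In cardiomyocytes, angII+VEGFC minus ctrl had 1 member called, Tbx5, with quantile normalization (0 to 1 when leaving out a library).

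Leaving out single libraries moved Hand2os1 from −0.49 to 0.14 for angII+VEGFC minus ctrl in heart LECs (above 0 without the first ctrl or the first angII+VEGFC library) and from −0.42 to 0.25 for angII+VEGFC minus angII in heart BECs (below 0 without the first angII+VEGFC library), and Tbx5 from −0.19 to 0.44 for heart LECs minus heart BECs. Carry-over, as a percent of the cardiomyocyte level, was 2.74 with Tnnt2, 2.60 with Actc1, 6.74 with Myl2 and 31.7 with Ryr2 in heart LECs, 1.32, 1.28, 4.81 and 17.3 in heart BECs, and 23.2 with Ryr2 in diaphragm LECs. Correlations with Myh6 in heart LECs changed sign for Gata4 (0.434 without 2 libraries, 0.496 in batch 1, 0.114 with Tnnt2), Gata6 (−0.287 with Tnnt2), Hand2 (0.039 and 0.143 without 2 libraries and in batch 1) and Hand2os1 (0.00521 with a pseudocount of 0.1 TPM, 0.407 in batch 2). TPM keeps no read counts, so no counting error could be given, and members near 1 TPM are the least certain.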

Other observations

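Endothelial genes were also measured in the cardiomyocyte libraries, in a comparison chosen after the data were seen. Cdh5, the junction protein VE-cadherin, averaged 26.8 TPM in cardiomyocytes and 199 TPM in heart BECs, or 13.5%. At that ratio, heart BECs would bring 2.74 TPM of Gata4, 4.41 TPM of Gata6, 0.38 TPM of Hand2, 5.50 TPM of Hand2os1 and 24.9 TPM of Mef2c into the cardiomyocyte libraries. These are 7.47%, 17.8%, 8.33%, 13.1% and 41.4% of the levels measured there. With Pecam1 as the reference the ratio was 17.4%.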
